A study of Rattus norvegicus with 16 samples.

Results

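The small S100 calcium-binding proteins were followed through 16 single-colour arrays of rat hippocampus. Their probes were found by gene name: a non-control probe was taken where the name on the array equalled S100a1, S100a3, S100a4, S100a6, S100a8, S100a9, S100a10, S100a11 or S100a13. Each of these 9 genes had 1 probe, printed as 1 spot per array, so that 9 of the 26583 gene names and 9 of the 30367 probes of the array are described here. All 9 passed the filter on dim probes. The hippocampi came from adult male Sprague-Dawley rats and were taken 24 h after injury or its equivalent, with 1 rat per array. Naive rats (n = 3) had neither injury nor treatment, and Sham rats (n = 2) were anesthetized and prepared for injury but not injured. TBI rats (n = 3) received a severe parasagittal fluid percussion injury, a model in which a pressure pulse of fluid strikes the exposed dura. The TBI+PMI (n = 3), TBI+JM6 (n = 3) and TBI+E33 (n = 2) rats had the same injury and then PMI at 250 mg/kg, JM6 at 400 mg/kg or E33, which is estradiol, at 33 ug/kg. JM6 acts on the enzyme kynurenine 3-monooxygenase, and PMI is an experimental compound. The question put by these groups is which genes the injury changes and whether the drugs, all described as neuroprotective, change them again. Unless stated otherwise, the p-values use 1 spread per gene, pooled over the rats of all groups. The small number of rats limits the precision.

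S100 proteins are small, mostly dimeric proteins that bind calcium through EF-hand motifs, and most of them act by binding a partner protein once calcium has opened a hydrophobic face. Inside cells they act on the cytoskeleton, on membrane annexins and on ion channels, and several are also released and then bind receptors such as Tlr4 and RAGE (gene Ager). S100a8 and S100a9 form calprotectin, which is plentiful in neutrophils and monocytes and is known as an alarm signal of damaged tissue, whereas S100b is the S100 protein best known from astrocytes.

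All 9 genes lie on chromosome 2. In the positions that the scanner files give on build rn4, 7 of the probes, from S100a1 to S100a9, fall within 202.85 kb. The probes of S100a10 and S100a11 lie within 33.869 kb of each other, 3.633 Mb further along. Such relatives could share hybridization, so the 60-base probes were compared with each other. The longest run that any 2 of the 9 probes share is 12 bases, between S100a1 and S100a6, and it is shown in capitals. The probes of S100a8 and S100a9, the 2 genes with the largest differences after TBI, are printed below them and share at most 9 bases. Each is given in the orientation printed in the scanner files.
S100a1 (rn4 chr2:182784857-182784916, minus strand): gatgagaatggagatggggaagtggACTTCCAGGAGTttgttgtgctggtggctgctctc
S100a6 (rn4 chr2:182896129-182896188, plus strand): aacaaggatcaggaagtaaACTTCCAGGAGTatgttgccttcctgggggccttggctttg
S100a8 (rn4 chr2:182962328-182962387, plus strand): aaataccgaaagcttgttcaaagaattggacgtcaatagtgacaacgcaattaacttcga
S100a9 (rn4 chr2:182987647-182987706, minus strand): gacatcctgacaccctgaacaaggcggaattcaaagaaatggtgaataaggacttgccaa

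Signals are given as log2 of the spot intensity divided by the 75th percentile of the probes well above background on the same array, so that 0 is the level of that percentile and 1 unit is a doubling. Since probes differ in how well they hybridize, levels are compared between arrays for 1 gene and never between genes. In bulk tissue, fewer cells of a type and less RNA per cell cannot be told apart. Of the 9 genes, 8 were well above background on 16 of 16 arrays. The exception was S100a8, which passed on 0 of 3 Naive arrays, on 1 of 2 Sham arrays and on every array of the injured groups. No member was saturated on any array. The scanner software had marked 2 member values as outliers, S100a10 on TBI 2 and S100a8 on TBI+JM6 2, and these were left out, so that S100a10 has n = 2 in TBI and S100a8 has n = 2 in TBI+JM6.

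The arrays fall into 2 scanning sessions, and this touches every comparison below. The Naive, Sham and TBI arrays were scanned in 1 session, with 16570 to 18479 probes well above background, and all drug arrays in the other, with 20267 to 25037. A slide holds 4 arrays: Naive 1 and 2 shared a slide with both Sham arrays, and Naive 3 with the 3 TBI arrays. Markers of neurons and of the hippocampus were present throughout, with 6 to 7 of 7 and 5 to 7 of 7 markers above background. TBI 1 stood apart within its group: it was the lowest of the 3 TBI arrays for 515 of the 676 probes called higher in TBI vs. Naive (76.2%).

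**Figure D1:**
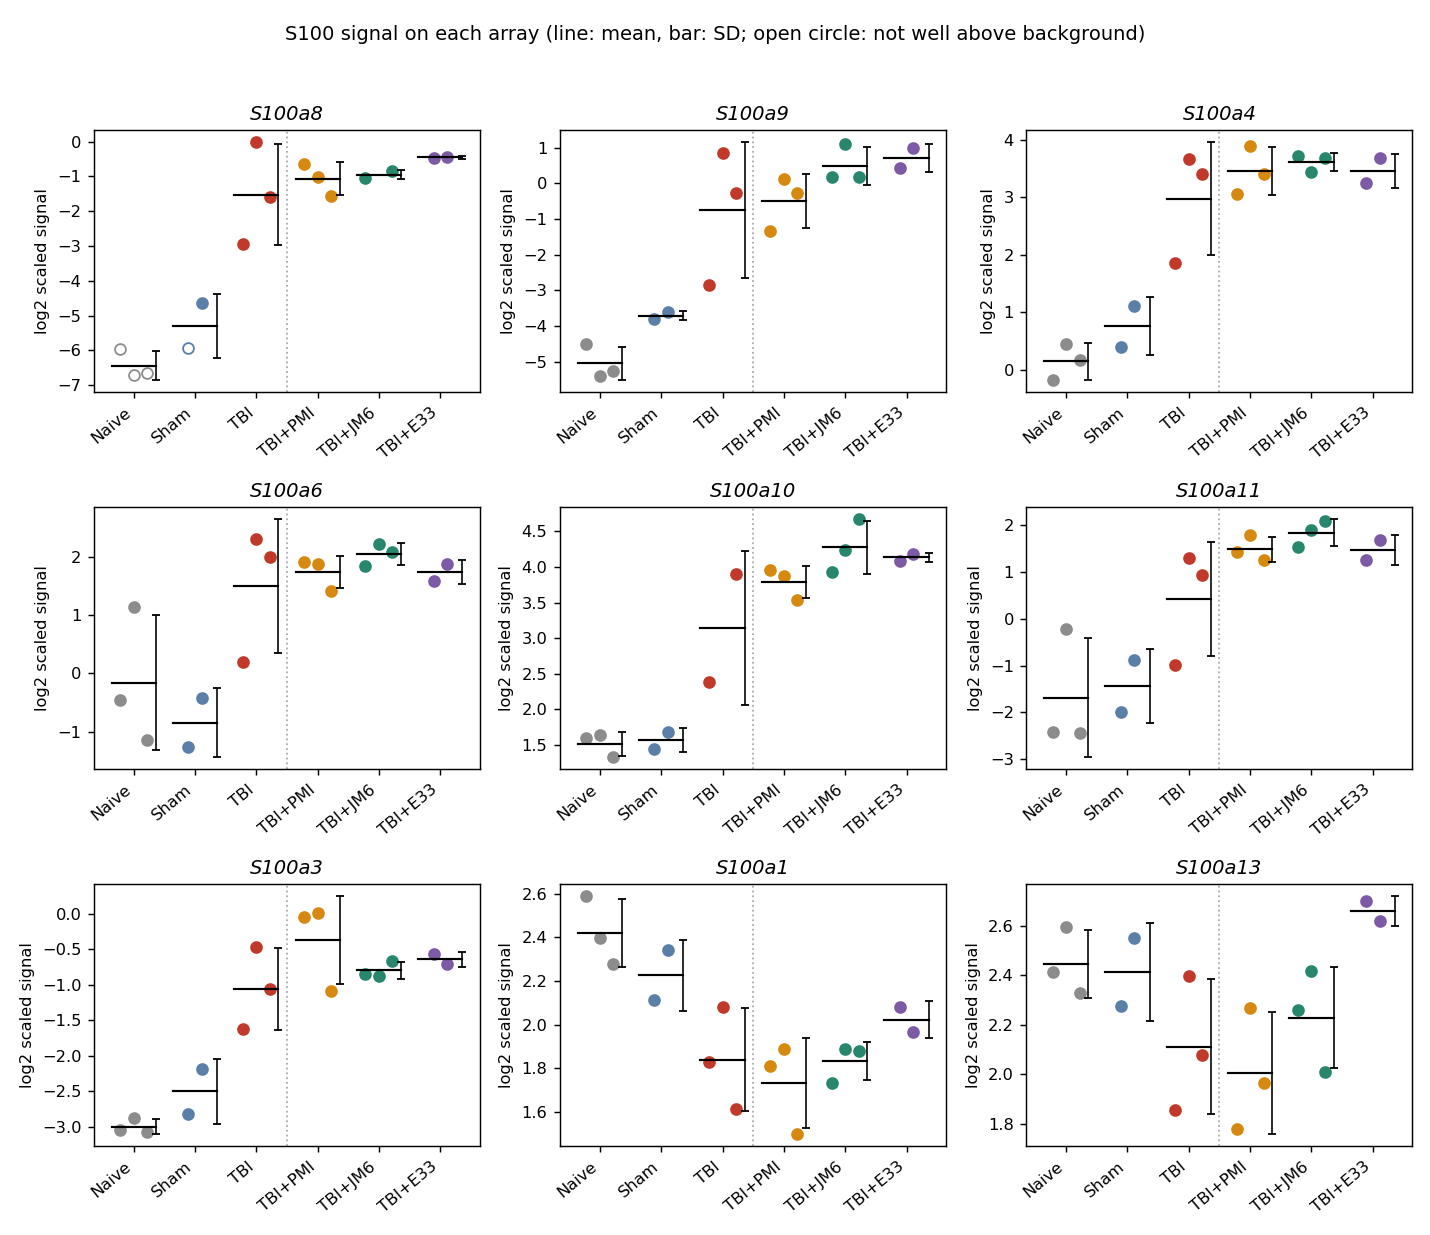
Signal of the 9 S100 genes on each of the 16 arrays, as log2 of the signal scaled to the 75th percentile of the array. Points are arrays, horizontal lines group means and bars 1 SD, open circles mark values not well above background, and the dotted line separates the 2 scanning sessions. S100a8 is open on the 3 Naive arrays and on 1 Sham array, and TBI 1 is the lowest TBI array for every gene shown except S100a1.

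TBI raised most of the family. Against Sham, 6 of the 9 genes rose (S100a3, S100a4, S100a6, S100a8, S100a9 and S100a10) and 0 fell, where 2.92% of all probes tested were called higher and 6.46% lower. Against Naive, 5 rose (S100a3, S100a4, S100a8, S100a9 and S100a10) and 0 fell, where 2.98% of all probes were called higher and 1.73% lower. The median log2 fold change of the 9 genes was 1.85 against Sham and 1.95 against Naive, while that of all tested probes was -0.03 and 0.04. The TBI arrays did not overlap the Sham arrays for 7 of 9 genes, and 41.5% of all probes with a value on every array did the same. The TBI and Naive arrays did not overlap for 6 of 9, and 22.9% of all probes did the same. Both counts of members include S100a1, whose TBI arrays were the lower ones, and S100a10, which has 2 TBI values. A call here is an adjusted p under 0.05 in limma with the Benjamini-Hochberg method over all tested probes. The 3 TBI arrays are the same in both comparisons.

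The calprotectin genes differed most. S100a8 read -5.95, -6.71 and -6.65 on the Naive arrays and -5.94 and -4.65 on the Sham arrays, and -2.94, -0.02 and -1.60 on the TBI arrays. Every TBI array lay above every Naive and Sham array. S100a8 passed the filter on dim probes through the injured groups, where it is high, so its calls, counted above, are not free of that choice. The log2 fold change was 3.77 ± 0.66 (SE) against Sham (adjusted p = 0.00993), with 1 of the 2 Sham arrays above background. Against Naive, where S100a8 was not well above background on any array, it was at least 22.4-fold higher in TBI (adjusted p = 0.00272). That bound sets the TBI mean against the dimmest signal that still passed as well above background on each Naive array. With 1 array left out the bound ran from 13.3-fold (without TBI 2) to 36.6-fold (without TBI 1).

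S100a9, the partner of S100a8 in calprotectin, read -4.51, -5.39 and -5.25 in Naive, -3.80 and -3.62 in Sham, and -2.86, 0.86 and -0.28 in TBI. The groups did not overlap, but TBI 1 was closer to the Sham arrays than to the other TBI arrays. It rose by a log2 fold change of 2.95 ± 0.80 against Sham (adjusted p = 0.0388) and of 4.29 ± 0.72 against Naive (adjusted p = 0.00898). Its fold against Sham turned on single arrays: the log2 fold change was 4.0 without TBI 1 and 2.14 without TBI 2. It was not called without TBI 2 (adjusted p = 0.114), TBI 3 (adjusted p = 0.122), Sham 1 (adjusted p = 0.157) or Sham 2 (adjusted p = 0.139). For S100a8 the values without TBI 1 and TBI 2 were 4.48 and 3.02, and its call was lost without Sham 1 alone (3.13, adjusted p = 0.0731).

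S100a4, which binds non-muscle myosin and is known from motile cells and fibroblasts, rose against both controls. It read -0.18, 0.45 and 0.18 in Naive, 0.40 and 1.12 in Sham, and 1.86, 3.67 and 3.41 in TBI. The lowest TBI array was above the highest Sham array, and both Sham arrays were within 1 unit of the highest Naive array. The log2 fold change was 2.22 ± 0.45 against Sham (adjusted p = 0.0138) and 2.83 ± 0.40 against Naive (adjusted p = 0.00437). Of the fits with a TBI array left out, the call against Sham was lost without TBI 3 (2.01, adjusted p = 0.0568). The difference was 1.86 without Sham 1 and 2.58 without Sham 2, each of which left 1 Sham array. Calls with a Sham array left out are counted further below.

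S100a6, or calcyclin, binds the Siah-1-interacting protein Cacybp and several annexins. It read -0.47, 1.14 and -1.14 in Naive, -1.27 and -0.43 in Sham, and 0.19, 2.31 and 2.01 in TBI. Naive 2 lay above TBI 1, so that TBI overlapped Naive but not Sham. It rose against Sham (2.35 ± 0.64, adjusted p = 0.0387), and the difference from Naive was 1.66 ± 0.57 (adjusted p = 0.117). The difference from Naive was called without Naive 2 (2.31, adjusted p = 0.0354) or without TBI 1 (2.32, adjusted p = 0.0167). Of the fits with a TBI array left out, the call against Sham was lost without TBI 2 (1.95, adjusted p = 0.126) or TBI 3 (2.10, adjusted p = 0.127). Against Sham the difference was 1.93 without Sham 1 and 2.77 without Sham 2, each of which left 1 Sham array. Calls in those fits are counted further below.

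S100a11, or calgizzarin, which binds annexin A1, had the same outlying Naive array. It read -2.41, -0.21 and -2.43 in Naive, -1.99 and -0.87 in Sham, and -0.98, 1.30 and 0.95 in TBI. TBI 1 lay below both Naive 2 and Sham 2, and the difference was 1.85 ± 0.70 against Sham (adjusted p = 0.114) and 2.11 ± 0.63 against Naive (adjusted p = 0.0753). Neither passed the test, and both did without TBI 1 (2.55, adjusted p = 0.0159, and 2.81, adjusted p = 0.0117). Without Naive 2 the difference from Naive also passed (2.84, adjusted p = 0.0216). The 2 genes whose signal was most like that of S100a11 over the 16 arrays, RGD1563581 and RGD1565648, are themselves described on the array as similar to S100a11, and hybridization from these copies cannot be told apart from its own.

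S100a10, or p11, which forms a heterotetramer with annexin A2 and carries ion channels and serotonin receptors to the cell surface, varied little before injury. It read 1.60, 1.63 and 1.33 in Naive and 1.45 and 1.69 in Sham, and 2.38 and 3.90 on the 2 TBI arrays with a usable value. The marked TBI 2 spot would read 4.14. The log2 fold change was 1.57 ± 0.40 against Sham (adjusted p = 0.0325) and 1.62 ± 0.36 against Naive (adjusted p = 0.0294). With the marked spot kept they were 1.94 and 1.99. With 1 array left out, or TBI 1 and Naive 2 both, they ran from 0.81 to 2.34 and from 0.86 to 2.44, the lowest without TBI 3 (adjusted p = 0.179 in both). The call against Naive was also lost without any 1 of the Naive arrays (adjusted p = 0.0556 to 0.0789), and that against Sham without Sham 1 (adjusted p = 0.142), Sham 2 (adjusted p = 0.102) or TBI 2 (adjusted p = 0.0563).

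S100a3, best known from hair cuticle, also rose. It read -3.04, -2.88 and -3.08 in Naive, -2.82 and -2.18 in Sham, and -1.62, -0.47 and -1.06 in TBI, with no overlap between TBI and either control group. The log2 fold change was 1.45 ± 0.36 against Sham (adjusted p = 0.0279) and 1.95 ± 0.32 against Naive (adjusted p = 0.00804). Of the fits with a TBI array left out, the call against Sham was lost without TBI 2 (1.16, adjusted p = 0.0899) or TBI 3 (1.45, adjusted p = 0.0806). The difference from Sham was 1.12 without Sham 1 and 1.77 without Sham 2, each of which left 1 Sham array. Calls in those fits are counted below.

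The remaining pair had the opposite sign and did not pass the test. S100a1, known from heart and neurons as a regulator of ryanodine receptors, read 2.59, 2.40 and 2.28 in Naive, 2.11 and 2.34 in Sham, and 1.83, 2.08 and 1.61 in TBI. Every TBI array was below every Naive and Sham array, and the difference was -0.39 ± 0.19 against Sham (adjusted p = 0.212) and -0.58 ± 0.17 against Naive (adjusted p = 0.0672). With quantile normalization in place of the 75th percentile the difference from Naive was -0.62 and was called (adjusted p = 0.0212), where 2.56% of all probes were called lower. S100a13, which takes part in the release of Fgf1 and Il1a by a route outside the classical secretory pathway, read 2.33 to 2.59 in Naive, 2.27 to 2.55 in Sham and 1.86 to 2.40 in TBI. These ranges overlapped, and the differences were -0.30 ± 0.21 (adjusted p = 0.391) and -0.33 ± 0.19 (adjusted p = 0.343).

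**Figure D2:**
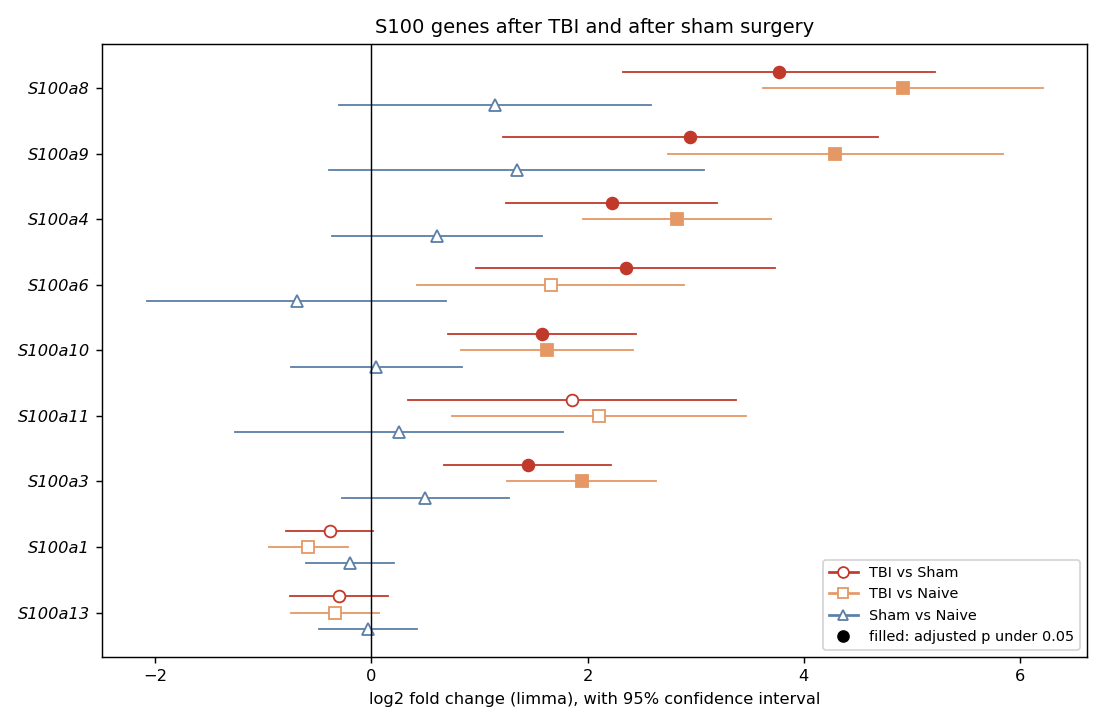
Log2 fold changes of the 9 S100 genes from the limma model, with 95% confidence intervals, for TBI vs. Sham, TBI vs. Naive and Sham vs. Naive. Filled symbols have an adjusted p under 0.05: 6 genes in TBI vs. Sham, 5 in TBI vs. Naive and 0 in Sham vs. Naive. Differences of S100a8 from Naive are drawn as measured, although no Naive array was above background.

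The calls against Sham rest on few arrays and on a spread pooled over all groups, which differed in it. The SD of S100a9 was 1.90 in TBI and 0.13 in Sham. It was 0.75, 0.54 and 0.38 in TBI+PMI, TBI+JM6 and TBI+E33. In limma on the TBI and Sham arrays alone, with a normexp background correction, with the slide as a fixed block and with the methods' t-test after adjustment, 0 of the 9 genes were called in TBI vs. Sham, and they numbered 0, 1, 0 and 0 in TBI vs. Naive, although every called gene kept its direction. Unadjusted p-values were under 0.05 for 7 genes against Sham and 8 against Naive in limma, as they were for 26% and 20.9% of all probes. By the methods' t-test, unadjusted with a 1.2-fold limit, they were 0 and 5. Leaving out Sham 1 left 0 calls against Sham, Sham 2 or TBI 2 left 2, TBI 3 left 1, and leaving out TBI 1 gave 7. Against Naive the calls were 4 to 7 with any 1 array left out. Within the slide that held Naive 3 and the TBI arrays, the TBI mean was above Naive 3 by log2 differences of 4.49 for S100a9, 2.80 for S100a4, 2.64 for S100a6, 2.86 for S100a11, 2.02 for S100a3 and 1.82 for S100a10, and below it by log2 differences of -0.44 for S100a1 and -0.22 for S100a13. S100a8, not above background on Naive 3, was at least 20.9-fold higher. TBI and Sham shared no slide.

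Markers of other cells moved on some of these arrays. Of 9 monocyte or macrophage markers, 3 rose in TBI vs. Sham (Cd14, Cd68 and Plac8) and 2 in TBI vs. Naive (Cd14 and Cd68), and their summed scaled signal was 0.873 to 1.08 in Naive, 1.10 to 1.82 in Sham, and 2.16, 6.82 and 2.01 on the TBI arrays. TBI 2, with the highest sum, also had the highest TBI value of S100a8 and S100a9, but TBI 1 and TBI 3 had similar sums and S100a9 values of -2.86 and -0.28. Of 14 neutrophil markers 9 were tested, and the sum over the 14 was 0.162 to 0.188 in Naive, 1.5 and 0.164 in Sham, and 0.182 to 0.438 in TBI. Of the 9 tested, 8 had a positive difference in TBI vs. Sham, with a median log2 fold change of 0.91. In TBI vs. Naive 6 did, with a median of 0.86. Mpo and Elane, which define neutrophil granules, did not pass the filter and were above background on no TBI array. Among the neutrophil markers reported here, Il1r2 was called higher and Camp lower in TBI vs. Naive. In TBI vs. Sham, 3 of 9 microglia, 4 of 7 oligodendrocyte, 1 of 7 endothelial, 2 of 7 neuron and 1 of 7 hippocampus markers were called lower and none higher. In TBI vs. Naive, 1 of 8 astrocyte markers (Gfap) was called higher and 2 lower, 1 of 9 microglia markers was lower, and none of the oligodendrocyte, endothelial, neuron or hippocampus markers was called. The 2 red blood cell markers tested were called in neither. Calls of markers, here and in the next paragraph, are to be read against the shares of all probes. These were 2.92% higher and 6.46% lower in TBI vs. Sham, and 2.98% and 1.73% in TBI vs. Naive. The part of the listed cell types in the rise of the S100 genes was not tested.

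Naive 2 stood out in another way. The summed scaled signal of 7 choroid plexus markers was 76.8 on Naive 2 and 122 on Sham 1, against 2.35 to 4.92 on the other Naive and Sham arrays and 0.199 to 3.55 on the TBI arrays. The 7 markers of meningeal fibroblasts summed to 12.2 on Naive 2 and 5.99 on Sham 1, against 0.970 to 1.02 on the TBI arrays. S100a6 and S100a11 were at their Naive maximum on Naive 2, whereas on Sham 1 both were at the lower of the 2 Sham values. Of these lists, Dcn of the fibroblasts was called, lower in TBI against both controls. The fibroblast sum was lower on each TBI array than on any array of the other groups, while the choroid plexus sum of TBI 1 lay within the range of the Naive arrays. The part of these cells in the values of Naive 2 was not tested.

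Sham surgery by itself changed none of the 9 genes by this test. In Sham vs. Naive 0 of 9 genes were called in limma, 0 had an unadjusted p under 0.05, and the methods' t-test without adjustment passed 1, S100a9, while 8.08% of all probes were called. The log2 fold changes ran from -0.69 for S100a6 to 1.34 for S100a9. Both calprotectin genes were higher on the Sham arrays by values that did not pass, 1.34 ± 0.80 for S100a9 (adjusted p = 0.357) and at least 1.64-fold for S100a8 (adjusted p = 0.342), with 1 of 2 Sham and 0 of 3 Naive arrays above background for the latter. The groups did not overlap for 3 of 9 genes (S100a3, S100a8 and S100a9), and 38.9% of all probes did the same. The 95% interval of S100a9, -0.39 to 3.08, leaves room for a several-fold difference.

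The genes called higher in TBI, and S100a11, were high in the drug groups too. On the TBI+PMI, TBI+JM6 and TBI+E33 arrays together, S100a4 read 3.06 to 3.89, S100a6 1.42 to 2.23, S100a11 1.25 to 2.09, S100a10 3.54 to 4.67 and S100a3 -1.08 to 0.02. These were all above the highest Naive and Sham values, although the drug arrays were scanned in another session than those. S100a8 read -1.56 to -0.43 and S100a9 -1.35 to 1.11, and these too were above every control array. The share of all probes with every drug array above every control array was not counted. Against TBI, the median of all tested probes was itself shifted upward in each drug group, as given below. The SD within a group was below that of TBI for 8 of 9 genes in TBI+PMI (S100a3 was the exception) and for 9 of 9 in TBI+JM6 and in TBI+E33. For S100a4 it was 0.98 in TBI and 0.42, 0.15 and 0.30 in TBI+PMI, TBI+JM6 and TBI+E33. The share of all probes with a smaller SD than in TBI was not counted. Over probes in general, the median distance of an array from its group mean was 0.16 to 0.24 in TBI. It was 0.16 to 0.22 in TBI+PMI, 0.13 to 0.23 in TBI+JM6 and 0.10 on both TBI+E33 arrays.

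Few members differed between a drug group and TBI. In TBI+PMI vs. TBI 0 of 9 were called, 0 with an unadjusted p under 0.05, where 56.7% of all probes were called. In TBI+JM6 vs. TBI 1 was called, S100a10, where 70.1% were called. In TBI+E33 vs. TBI 2 were called, S100a10 and S100a13, where 70.3% were called. No member was called lower under this scaling. The median of all tested probes was itself shifted by 0.79, 1.0 and 1.08 in the 3 comparisons, above the members' medians of 0.46, 0.58 and 0.55. Quantile normalization took the median of all probes close to 0 (-0.0149, -0.0024 and -0.0033) and the members' medians to -0.19, -0.01 and 0.07. Since no drug array shared a session with a TBI array, drug and session cannot be told apart.

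The 3 genes called under either scaling show how far this matters. S100a10 read 3.93, 4.23 and 4.67 in TBI+JM6 and 4.09 and 4.18 in TBI+E33, all above the 2 usable TBI values, though not all above the marked one. It rose by 1.13 ± 0.36 in TBI+JM6 (adjusted p = 0.0157) and 0.99 ± 0.40 in TBI+E33 (adjusted p = 0.0419). Taken against the median of all probes these were 0.14 and -0.08. With quantile normalization TBI+JM6 was at 0.70 (adjusted p = 0.114), and with the marked TBI spot kept the differences were 0.81 and 0.68 and neither was called. S100a13 read 2.70 and 2.62 in TBI+E33, above the highest TBI array at 2.40, and rose by 0.55 ± 0.21 (adjusted p = 0.0329). Centred on all probes the same difference was -0.53, and with quantile normalization at -0.01 (adjusted p = 0.98). S100a1 read 1.5 to 1.89 in TBI+PMI and 1.73 to 1.89 in TBI+JM6, within the TBI range or just below it, and differed from TBI by -0.11 and -0.01 (adjusted p = 0.59 and 0.972). With quantile normalization it was called, lower by -0.54 in TBI+PMI (adjusted p = 0.015) and -0.59 in TBI+JM6 (adjusted p = 0.00747), where 9.21% and 13.3% of all probes were called lower. It was also called lower in both with the authors' matrix and, in all 3 drug groups, with the 75th percentile over all probes. That last scaling also called S100a13 lower in TBI+PMI and TBI+JM6, with adjusted p = 0.0121 in the latter.

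**Figure D3:**
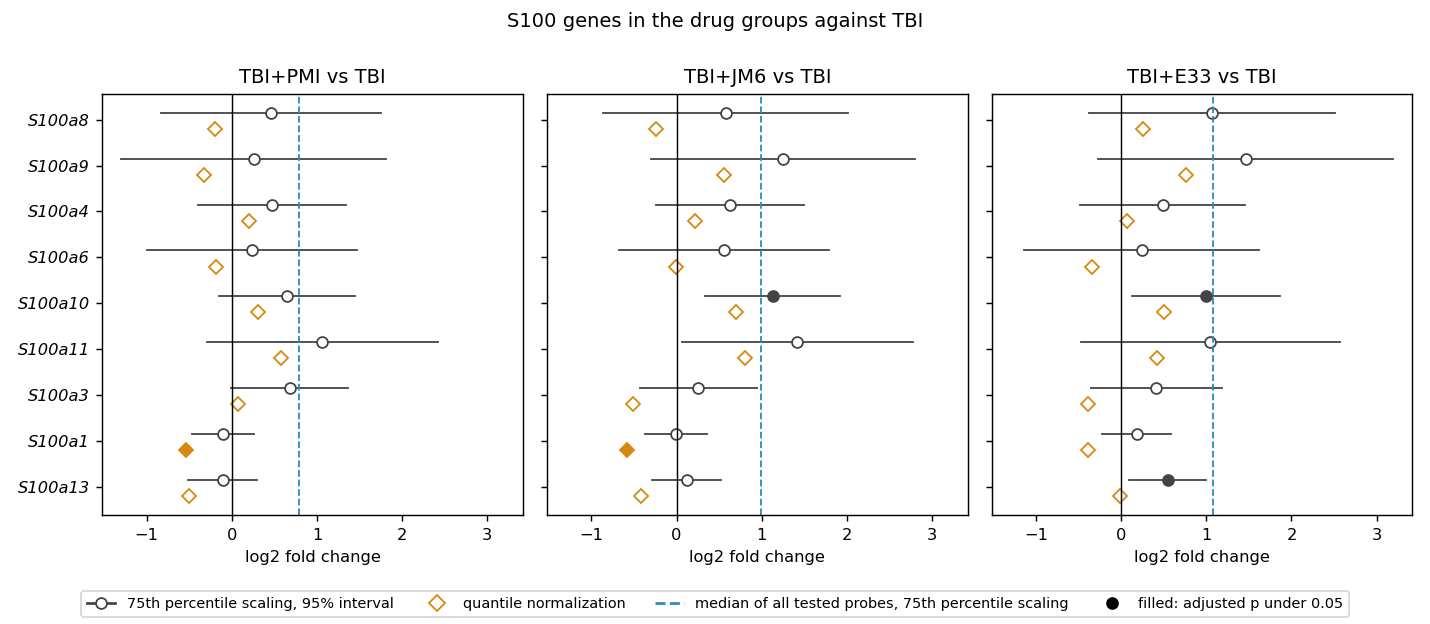
Log2 fold changes of the 9 S100 genes in each drug group against TBI, with 95% confidence intervals for the 75th percentile scaling (circles) and the values after quantile normalization (diamonds). The dashed line is the median of all tested probes under the 75th percentile scaling (0.79, 1.0 and 1.08), and filled symbols have an adjusted p under 0.05.

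The 3 drug groups, which were scanned together, did not differ in these genes by this test. In TBI+JM6 vs. TBI+PMI, TBI+JM6 vs. TBI+E33 and TBI+PMI vs. TBI+E33, 0 of 9 members were called, with 0, 0 and 1 unadjusted p under 0.05, where 0.0131%, 0.0175% and 0.11% of all probes were called. The drugs were given at different doses, so their values are set side by side without ranking them. S100a9 was -0.50 ± 0.75 (SD, n = 3) in TBI+PMI, 0.49 ± 0.54 (n = 3) in TBI+JM6 and 0.70 ± 0.38 (n = 2) in TBI+E33. TBI+PMI 1 was the lowest of the 8 drug arrays for S100a9, at -1.35, and for S100a4, at 3.06. That array also had the highest choroid plexus sum of the 16 (152).

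Other S100 genes were looked at beside the members. Of 9 further S100 genes listed, 8 were on the array and 5 passed the filter (S100b, S100a5, S100a16, S100z and the binding protein gene S100pbp). None of the 5 was called by limma in TBI vs. Sham or TBI vs. Naive. S100b, the astrocyte gene, read 4.93 to 5.10 in Naive, 4.94 and 5.46 in Sham, and 4.74, 4.44 and 4.43 in TBI. All 3 TBI arrays were below all control arrays, and the difference was -0.67 ± 0.20 against Sham (adjusted p = 0.0515) and -0.49 ± 0.18 against Naive (adjusted p = 0.133). S100a16 read 1.71 to 2.07 in Naive, 1.64 and 1.91 in Sham, and 1.59, 2.55 and 2.35 in TBI. TBI 2 and TBI 3 lay above every control array, and TBI 1 lay below them all. S100a16 differed by 0.38 ± 0.27 against Sham (adjusted p = 0.395) and 0.24 ± 0.24 against Naive (adjusted p = 0.632). S100a5 and S100z were above background on 1 and 0 of 3 TBI arrays and on no Naive or Sham array, and they passed the filter through drug groups, where they are high. Both were called higher in each drug group against TBI, across the scanning sessions, with S100z at least 3.30-fold to 3.66-fold higher. After quantile normalization S100a5 was called in none of these and S100z in TBI+PMI and TBI+JM6.

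Among 25 genes of known S100 partners and receptors, which were all tested, 1 rose and 1 fell in TBI vs. Sham, and 3 rose and 1 fell in TBI vs. Naive. These counts are to be read against the shares of all probes given above, 2.92% and 6.46% in the first and 2.98% and 1.73% in the other. Tlr4, a receptor of released S100a8 and S100a9, was called in both. The 3 TBI arrays were above background, as were 0 of 2 Sham arrays and 1 of 3 Naive arrays. Tlr4 thus passed the filter through the injured groups, where it is high, and its calls are not free of that choice. It was at least 2.37-fold higher in TBI than in Sham (adjusted p = 0.0209). The measured log2 difference from Naive was 1.44 ± 0.37 (adjusted p = 0.0455), which rests on 1 Naive array above background. Cd36, a scavenger receptor that binds calprotectin, rose against Naive by 3.20 ± 0.71 (adjusted p = 0.0256) and differed from Sham by 2.04 ± 0.79 (adjusted p = 0.123). Of the control arrays only Naive 2 and Sham 2 were above background for Cd36. It passed the filter through the injured groups, where it is high. The Naive values were -8.10, -5.70 and -8.20, so that this difference too rests on 1 Naive array above background. Ager, the gene of RAGE, read -4.45 to -5.04 in Naive and -4.53 to -5.15 in TBI, which overlapped, with differences of 0.21 against Sham and -0.03 against Naive.

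For S100a10, the partner annexin A2 (Anxa2) read -1.09, 0.79 and -1.65 in Naive, -0.80 and 0.02 in Sham, and -0.10, 2.32 and 2.03 in TBI. Within the Naive, Sham and TBI groups its order of arrays was that of S100a11, with TBI 1 low and Naive 2 high, and the differences were 1.81 ± 0.72 against Sham (adjusted p = 0.132) and 2.06 ± 0.64 against Naive (adjusted p = 0.0881). Ahnak, the scaffold that the S100a10 and annexin A2 complex binds, differed from Sham by 1.40 ± 0.46 (adjusted p = 0.0747) and from Naive by 0.36 (adjusted p = 0.685), and Sham differed from Naive by -1.04. Kcnk3, a potassium channel whose surface level S100a10 regulates, fell against Naive by a log2 fold change of -1.70 ± 0.35 (adjusted p = 0.0192). It was not called against Sham. Kcnk3 read -2.50, -2.83 and -3.71 in Naive, -4.59 and -3.54 in Sham, and -4.32, -4.85 and -4.98 in TBI, so that TBI overlapped Sham. The serotonin receptor genes Htr1b and Htr4 were not called, and Htr1b was above background on no Naive, Sham or TBI array. Myh9, the non-muscle myosin bound by S100a4, rose against Naive by 0.93 ± 0.24 (adjusted p = 0.0486) and was at 0.04 against Sham, and Cacybp was called in neither. Ppp5c, a phosphatase that S100 proteins activate, fell against Sham (-1.47 ± 0.22, adjusted p = 0.00582) and rose in Sham vs. Naive, so that TBI and Naive differed by -0.16.

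**Figure D4:**
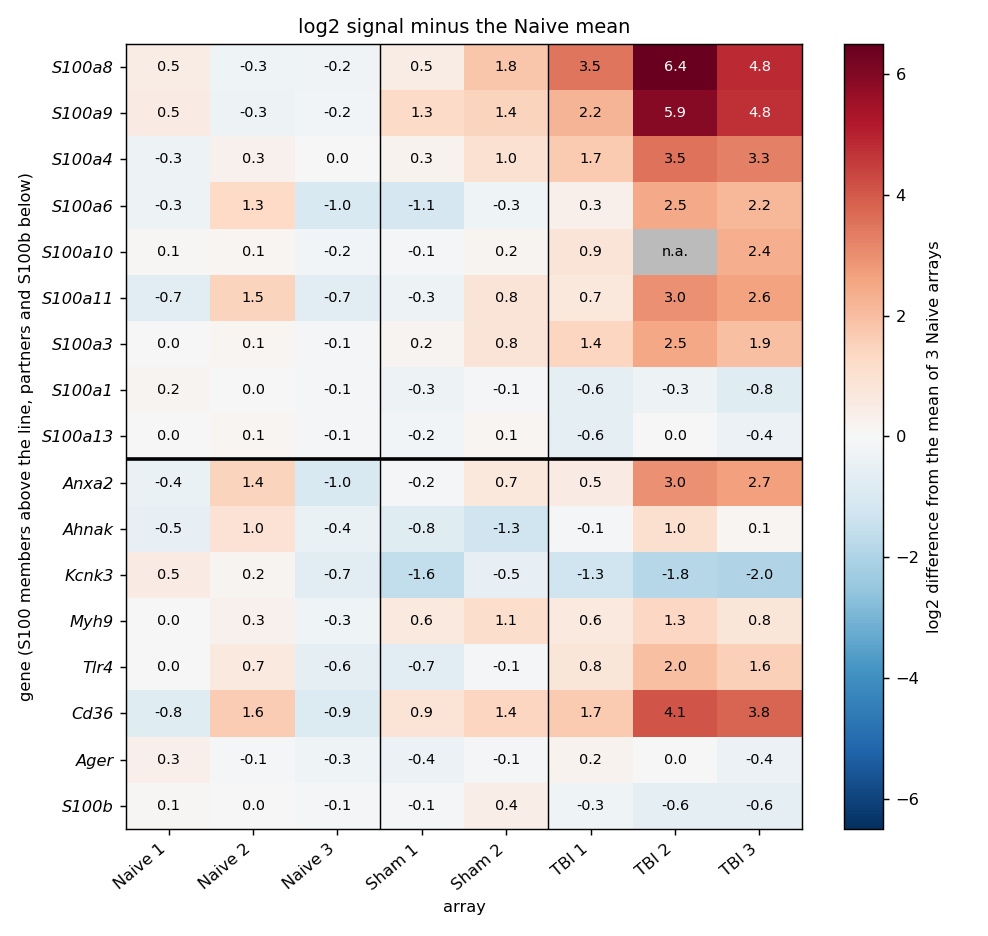
Log2 signal on each Naive, Sham and TBI array minus the mean of the 3 Naive arrays, for the 9 S100 genes (above the line) and for 7 partners and S100b (below it). The grey cell is the marked S100a10 value, and red cells on TBI 2 and TBI 3 mark the genes that were higher after TBI, with smaller values on TBI 1.

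The members were also compared by their pattern over the arrays, after the mean of each session had been taken from each gene, as a description without a test. The 7 genes with a positive difference after TBI correlated with each other at r = 0.72 to 0.95 over 15 to 16 arrays, highest for S100a6 with S100a11 (0.95) and then for S100a3 with S100a8, S100a4 with S100a8 and S100a8 with S100a9 (0.94 each). S100a1 correlated with these 7 at -0.36 to -0.65 and with S100a13 at 0.68. The points share groups, slides and depth. Taking out the session mean leaves the difference between TBI and its controls in these values. Since the 7 genes were taken by that difference, their r values partly restate it, as does the negative sign for S100a1. Outside the family, the genes most like S100a4 were Clec4a2, a lectin of myeloid cells (r = 0.99), Lgals3, the gene of galectin-3 (0.98), and the potassium channel gene Kcnn4 (0.98). Those most like S100a8 were Ncf4, a subunit of the phagocyte oxidase, Mt2A, a metallothionein, and Cd44, the hyaluronan receptor (0.96 each), and those most like S100a9 were Lsm2 (0.97), Gpnmb (0.96) and Apobec1 (0.96). Emp3 was among the 3 nearest to both S100a6 (0.98) and S100a11 (0.98), and Flna, the gene of filamin A, followed for S100a6 (0.97). S100a10 was nearest to Csrp3, LOC24906 and Fcgr2b (0.95, 0.95 and 0.94). S100a3 was nearest to Cnn3 (0.95), Mthfd2 (0.95) and Tmbim1 (0.94).

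Upstream sequence was looked at because genes of 1 small region moved apart: S100a4 and S100a9 rose, while S100a13 of the same region did not pass the test. The 250 bases before the gene start were taken from the RefSeq promoter table of build GRCr8, which had an entry for 6 of the 9 genes. Of these, S100a4, S100a9 and S100a13 are shown, each with a gene start at the table's start site. The capitals mark matches, on either strand, to TATAAA and to the C/EBP letters TTNNGNAA. C/EBP factors are transcription factors known for driving myeloid and acute phase genes.
S100a4 (GRCr8 chr2:178388279-178388528, plus strand): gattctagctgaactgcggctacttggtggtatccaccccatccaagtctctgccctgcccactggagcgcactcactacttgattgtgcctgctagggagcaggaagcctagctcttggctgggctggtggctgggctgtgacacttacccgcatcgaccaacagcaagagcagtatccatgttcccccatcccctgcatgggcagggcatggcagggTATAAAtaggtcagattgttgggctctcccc
S100a9 (GRCr8 chr2:178490623-178490872, minus strand): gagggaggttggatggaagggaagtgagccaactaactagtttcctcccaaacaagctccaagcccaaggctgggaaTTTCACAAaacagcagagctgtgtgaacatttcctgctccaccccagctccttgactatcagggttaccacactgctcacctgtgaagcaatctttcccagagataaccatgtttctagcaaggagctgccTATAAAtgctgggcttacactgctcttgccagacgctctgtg
S100a13 (GRCr8 chr2:178296770-178297019, plus strand): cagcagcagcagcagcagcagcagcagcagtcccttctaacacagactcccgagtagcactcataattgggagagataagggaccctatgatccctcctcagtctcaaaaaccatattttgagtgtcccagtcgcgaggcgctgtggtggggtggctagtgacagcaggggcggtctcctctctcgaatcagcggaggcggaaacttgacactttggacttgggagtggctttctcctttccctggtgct

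TATAAA begins at -31 in S100a4 and at -42 in S100a9, counted from the base before the start as -1, and 12.9% of the 33469 promoters of the table hold it within 250 bases. The C/EBP letters begin at -173 in S100a9, and 37.2% of promoters hold them. The windows of S100a13, S100a6 and S100a11 held neither, and that of S100a3 held the C/EBP letters at -210. The letters of AP-1 (TGANTCA), NF-kappaB (its consensus) and STAT (TTCNNNGAA) were in none of the 6 member windows and in 6.34%, 1.3% and 7.67% of all. A match of letters is a description and does not show that a factor binds.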

How the data were processed

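Hippocampal RNA of 16 rats had been amplified with either of 2 kits (which kit for which rat is not stated) and hybridized to single-colour Agilent rat arrays with probe positions on rn4. Per the file headers, the deposited intensities came from Feature Extraction 9.5.3.1, already background-subtracted but not scaled between arrays. The deposited matrix of the authors holds a linear ratio to each array's 75th percentile, and it served as an alternative.

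After outlier-flagged spots had been left out, the 42877 non-control spots were averaged by probe, scaled to the 75th percentile of the probes well above background and log2 transformed. Testing was limited to the 22833 of 30367 probes that passed as well above background on all arrays of some group. Of the 9 members 9 passed, S100a8 through the injured groups, where it is high. A limma model with a mean per group was fitted to 16 arrays (10 residual degrees of freedom), with Benjamini-Hochberg adjustment over all tested probes. It was tested on simulated data. Where a group had no array above background, a fold is given as a bound.

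The members and gene lists were chosen with earlier results of these data known. Named genes are the members, the other S100 genes tested, the partners called against Sham or Naive or binding a called member, and the 3 genes most like each member. Marker lists covered neutrophils, monocytes or macrophages, microglia, astrocytes, oligodendrocytes, endothelium, meningeal fibroblasts, choroid plexus, red blood cells, neurons and hippocampus. The result of 1 marker gene is not reported here. Alternatives changed the background (normexp, offset 50), the scaling (quantile, or the percentile over all probes), the filter (none, or all 16 arrays), the source (the matrix), the test (the methods' t-test, adjusted or with their 1.2-fold limit, or limma on the 2 compared groups), the block (slide fixed or random, replicate number) and the probe rule (the mean over a gene's probes), and left out each array in turn. Keeping flagged spots, centring on all probes, and leaving out TBI 1 with Naive 2 were added after seeing the data. Versions were R 4.3.3, limma 3.58.1, Python 3.11.15 and matplotlib 3.10.9, and data.table was 1.17.8.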

Additional observations from a re-analysis of the deposited data

How the results depend on the processing

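Among TBI, Sham and Naive, 13 of 546 member values changed sign under an alternative, none of them called in either fit. Between drug groups and TBI 67 of 528 did, 4 of them called in either fit, and between drug groups 34 of 519, none called. In Sham vs. Naive, S100a10 was at -0.017 with quantile normalization, -0.071 with the 75th percentile over all probes, -0.012 in the authors' matrix and -0.050 with the slide fixed, and S100a11 at -0.12 with the slide fixed. With arrays left out they ran from -0.072 to 0.17 and from -0.31 to 0.99, and S100a13 from -0.17 to 0.11. Against TBI, quantile normalization, the percentile over all probes and the matrix gave -0.42, -0.67 and -0.40 for S100a13 in TBI+JM6 and -0.39, -0.65 and -0.37 for S100a1 in TBI+E33. S100a13 in TBI+E33 was at -0.0096 with quantile normalization, -0.28 with the percentile over all probes and -0.53 centred on all probes. S100a10 was at -0.054 in TBI+PMI with the percentile over all probes and -0.084 in TBI+E33 centred on all probes. S100a1 in TBI+JM6 was at 0.0091 with the slide random and 0.0052 with flagged spots kept. With arrays left out, TBI+PMI ran from -0.11 to 1.41 for S100a10, -0.22 to 0.013 for S100a1 and -0.24 to 0.037 for S100a13, and TBI+JM6 from -0.12 to 0.11 for S100a1 and -0.0083 to 0.26 for S100a13. The cause was not tested. Signal over background limits S100a8 in Naive and Sham.

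Calls that moved are given as members, other S100 genes and partners. TBI vs. Sham (6, 0 and 2 called) had 0 members and 0 partners with normexp, the adjusted t-test, the compared groups alone and the slide fixed, 0 members and 4 partners with the unadjusted t-test, 3 members with no filter, 1 other gene and 4 partners with the filter on all arrays, 1 and 8 with the slide random, and 5 and 4 partners with the percentile over all probes and the matrix. TBI vs. Naive (5, 0 and 4) had 1 member and 0 partners with normexp, 0 and 0 with the adjusted t-test, the groups alone and the slide fixed, 2 partners with no filter, and 1 other gene with the unadjusted t-test. Sham vs. Naive (0, 0 and 3) had 1 member and 5 partners with the unadjusted t-test, 6 partners with the percentile over all probes, 1 with no filter and with flagged spots kept, and 0 with normexp, the adjusted t-test, the groups alone and the slide fixed. TBI+PMI vs. TBI (0, 3 and 17) had 1, 1 and 3 with quantile normalization and with the matrix, 2 members and 7 partners with the percentile over all probes, 0 other genes and 3 partners with normexp, 1 and 8 with the adjusted t-test, 1 other gene with the unadjusted t-test, the groups alone and the filter on all arrays, and 1 member with the slide random. TBI+JM6 vs. TBI (1, 2 and 15) had 0, 0 and 9 with normexp, 2, 4 and 7 with the percentile over all probes, 1 other gene and 7 partners with quantile normalization and with the matrix, 0 members and 1 other gene with the adjusted t-test, 0 members with the unadjusted t-test, the groups alone and flagged spots kept, and 2 members with the slide random and the filter on all arrays, the latter with 0 other genes. TBI+E33 vs. TBI (2, 2 and 16) had 0, 0 and 7 with normexp, 0, 0 and 5 with quantile normalization and with the matrix, 1, 4 and 9 with the percentile over all probes, 0, 1 and 9 with the adjusted t-test, 0 and 1 with the unadjusted t-test, 0 members with the groups alone, 1 with no filter and with flagged spots kept, and 0 other genes with the filter on all arrays. The unadjusted t-test passed 1 member in TBI+JM6 and 1 in TBI+PMI against TBI+E33. With arrays left out, members ran from 0 to 7, 4 to 7, 0 to 2, 0 to 5 and 0 to 4 in TBI vs. Sham, TBI vs. Naive and the 3 drug groups against TBI. Other genes ran from 0 to 1 in TBI vs. Sham and from 1 to 3, 2 to 3 and 2 to 3 against TBI. Partners ran from 1 to 8, 0 to 7 and 0 to 1 in TBI vs. Sham, TBI vs. Naive and Sham vs. Naive, and from 11 to 16, 13 to 16 and 10 to 14 against TBI.

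Same-numbered arrays did not deviate together (r from -0.185 to 0.181, 3 of 22 over 0.1, 8 of 16 arrays nearest to their own number), so the numbers do not pair rats. With the replicate block, 5 members were called in TBI vs. Sham, 6 in TBI vs. Naive and 2 in TBI+JM6 vs. TBI, and 1 partner in Sham vs. Naive. Calls over all probes were 1544 in place of 2139 in TBI vs. Sham.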
